A study of Homo sapiens with 4 samples.

Results

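The genes described here are 5 metallothioneins and 2 genes of the zinc response: MT2A, MT1X, MT1G, MT1F and MT1E, the zinc-sensing transcription factor MTF1 and the zinc exporter SLC30A1. They were chosen by symbol from a fixed list of 7 names. Each symbol matched 1 gene identifier, so the list covers 7 of the 61498 genes quantified. The rule itself uses no measured value, but the list was chosen with earlier results of these data known. Comparisons of these genes with all genes are therefore descriptions. All 7 genes had reads, and 6 of them passed the edgeR filter on low counts. MT1E did not pass it.

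The samples are polyadenylated RNA of K562, a human erythroleukemia line that makes embryonic and fetal globins and can be driven further along the erythroid path. The untreated group (WHITE) has 2 libraries. The hemin group (RED) has 2 libraries of the same line, cultured with 50 μM hemin, an iron-containing porphyrin, for 108 h to induce erythroid differentiation. Both groups came from a single cell line in serum-containing medium. Nothing in the labels says whether the replicates were separate cultures, so the p-values measure only the spread between these libraries. In the edgeR test the variance of each gene was drawn in part from the other genes tested.

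Expected counts, the reads that RSEM assigned to genes, summed to between 7455447 and 8241534 per library. All 9 erythroid marker genes examined were detected and passed the filter. HBZ rose by 0.70 ± 0.05 (log2 fold change ± SE, edgeR adjusted p = 0.000151), HBE1 by 0.41 ± 0.04 (adjusted p = 0.000445) and TFRC, the transferrin receptor, by 0.23 ± 0.04 (adjusted p = 0.00670). Of 10 markers of other cell types, 8 had any count and 3 passed the filter, with 1 called lower and none higher. Among all 14458 genes tested, edgeR called 7.14% lower and 14.1% in either direction. The T cell gene CD3E and the B cell gene MS4A1 had no count in any library. The epithelial gene KRT8 had 1508 and 1505 counts in untreated and 1104 and 1160 counts in hemin-treated libraries and fell by 0.42 ± 0.05 on the log2 scale (edgeR adjusted p = 0.000913). EPCAM, another epithelial gene, had 288 to 319 counts, with a log2 fold change of 0.08 ± 0.10 (adjusted p = 0.650), and the collagen gene COL1A2 was at -0.53 ± 0.15 (adjusted p = 0.0511). Counts summed over the 10 markers were 1928 and 1936 in untreated and 1520 and 1555 in hemin-treated libraries. KRT8 held most of these counts in every library. The sum was lower after hemin, as the metallothioneins were, and the part of these markers in the results was not tested.

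Metallothioneins are small cysteine-rich proteins that bind zinc and copper and buffer their free concentration in the cell. Their genes are switched on when zinc rises: MTF1 binds zinc through its zinc fingers and then binds metal response elements in metallothionein promoters. SLC30A1 moves zinc out of the cell across the plasma membrane, and its promoter is a known MTF1 target as well. In many cell types the metallothionein genes are also known to respond to heavy metals, glucocorticoids and oxidants.

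The 5 metallothionein genes lie within 75.6 kb of chromosome 16 of GRCh38. MT2A covers chr16:56608584-56609497, MT1E chr16:56625475-56627112, MT1F chr16:56657731-56660698 and MT1X chr16:56682470-56684196, all on the plus strand. MT1G covers chr16:56666730-56668065 on the minus strand. MTF1 lies at chr1:37809574-37859592 and SLC30A1 at chr1:211571568-211579161, both on the minus strand. Coordinates are those of GENCODE 44, a later annotation of the same build as the one the authors used.

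The first 90 coding bases of the 5 metallothioneins are shown because their likeness is what limits the assignment of 50-base reads to single genes. They were read 5′ to 3′ from the GENCODE 44 transcripts, and capitals mark each base that differs from MT2A at the same position.
MT2A: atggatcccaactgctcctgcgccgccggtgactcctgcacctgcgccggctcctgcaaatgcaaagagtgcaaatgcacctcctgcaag
MT1X: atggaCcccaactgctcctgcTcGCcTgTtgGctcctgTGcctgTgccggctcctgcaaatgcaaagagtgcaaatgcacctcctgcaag
MT1G: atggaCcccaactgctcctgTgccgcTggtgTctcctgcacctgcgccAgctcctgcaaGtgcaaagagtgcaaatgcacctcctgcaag
MT1F: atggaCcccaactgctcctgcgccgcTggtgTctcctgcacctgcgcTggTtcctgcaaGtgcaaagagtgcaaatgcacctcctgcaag
MT1E: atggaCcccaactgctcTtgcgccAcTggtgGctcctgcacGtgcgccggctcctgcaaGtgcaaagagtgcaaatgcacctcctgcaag

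In the transcript chosen for each gene, the coding sequence held 61 codons before the stop, of which 20 encoded cysteine. Over the 186 coding bases, identity to MT2A was 95.2% for MT1G, 92.5% for MT1X and for MT1E, and 91.4% for MT1F. The lowest identity of any pair was 88.7%, between MT1F and MT1X. Over whole transcripts, including their more divergent ends, the share of 50-base words found in another annotated gene was 18.7% for MT1X, 16.4% for MT1G, 7.10% for MT1E, 4.48% for MT2A and 1.24% for MT1F. For MT1X these words include ones of an unnamed overlapping gene on the same strand (ENSG00000259827), which was assigned no reads. MTF1 shared 0.642% of its 50-base words with other genes and SLC30A1 shared none.

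Promoter sequences are shown because metal response elements are where MTF1 is known to act. The RefSeq table for GRCh38.p14 gave the 250 bases before the start of 4 of the 7 genes. The searched element cores were TGCACNC and TGCGCNC, on both strands, and capitals mark the matches.
MT2A, plus strand, chr16:56608334-56608583: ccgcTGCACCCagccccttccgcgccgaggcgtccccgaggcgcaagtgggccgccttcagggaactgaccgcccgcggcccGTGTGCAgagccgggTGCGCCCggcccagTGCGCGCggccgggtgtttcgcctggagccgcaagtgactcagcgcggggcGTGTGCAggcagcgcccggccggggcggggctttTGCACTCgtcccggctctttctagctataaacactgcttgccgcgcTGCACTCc
MT1X, plus strand, chr16:56682220-56682469: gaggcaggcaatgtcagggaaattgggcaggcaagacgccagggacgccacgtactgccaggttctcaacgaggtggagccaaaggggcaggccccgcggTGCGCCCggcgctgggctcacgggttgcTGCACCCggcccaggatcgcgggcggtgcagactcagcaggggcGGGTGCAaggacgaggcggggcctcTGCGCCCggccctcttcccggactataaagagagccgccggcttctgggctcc
SLC30A1, minus strand, chr1:211579162-211579411: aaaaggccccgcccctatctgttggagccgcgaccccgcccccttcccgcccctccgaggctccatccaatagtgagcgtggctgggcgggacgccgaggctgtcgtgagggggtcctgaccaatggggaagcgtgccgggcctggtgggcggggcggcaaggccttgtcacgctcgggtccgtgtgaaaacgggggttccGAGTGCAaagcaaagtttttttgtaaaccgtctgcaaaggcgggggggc

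MT2A held 7 matches, MT1X held 4 and SLC30A1 held 1, while the promoter of MTF1 held none. Of 35116 promoter windows of the same length, 24.8% held at least 1 match, 0.370% at least 4 and 0.0313% at least 7. The match nearest to the start began 8 bases upstream in MT2A, 53 bases upstream in MT1X and 49 bases upstream in SLC30A1. The core of the antioxidant response element, TGACNNNGC, occurred once each in MT2A, MT1X and SLC30A1, and in 10.9% of all windows. These are matches of letters, and binding was not measured.

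MT2A, the most abundant metallothionein in untreated cells, fell after hemin and was the only one of the 7 genes past the threshold. It had 65.4 and 51.1 counts in the untreated libraries and 19.4 and 29.6 in the hemin-treated ones. Scaled for transcript length and depth as TPM, these were 32.6 and 26.0 against 9.70 and 13.9, with means of 29.3 ± 4.70 and 11.8 ± 2.95 (SD, n = 2 each). Both hemin-treated libraries lay below both untreated ones. The log2 fold change was -1.25 ± 0.26 (SE), with a 95% interval from -1.84 to -0.66 (edgeR quasi-likelihood test, Benjamini-Hochberg adjusted p = 0.0147). Summed over replicates, 116 untreated and 49 hemin-treated counts gave a fold of 2.38 (exact 95% interval 1.69 to 3.40, counting error only). The call was lost without untreated replicate 1, where the log2 fold change was -1.11 (adjusted p = 0.0909). It was also lost in limma's test on log2(TPM + 1), at -1.26 (adjusted p = 0.0809). In bulk RNA, fewer cells carrying a transcript and less of it per cell cannot be told apart.

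**Figure D1:**
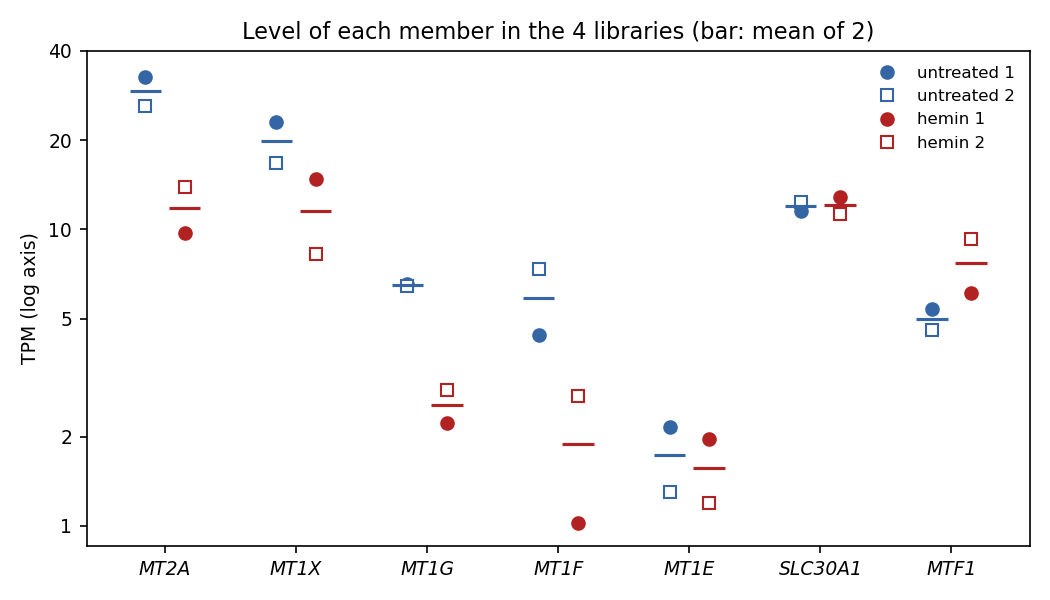
Level of each of the 7 genes in TPM (log axis) in the 2 untreated (blue) and 2 hemin-treated (red) libraries, with bars at group means. The groups are apart for MT2A, MT1X, MT1G and MT1F, which are lower after hemin, and for MTF1, which is higher in TPM with a test that did not pass; they overlap for MT1E and SLC30A1.

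MT1X, the next most abundant, had 46.1 and 35.1 counts in untreated and 32.8 and 19.3 in hemin-treated libraries. Its level was 23.1 and 16.7 TPM against 14.8 and 8.24 TPM. The groups did not overlap, but the gap between untreated replicate 2 and hemin replicate 1 was small beside the distance between the replicates themselves. The log2 fold change of -0.63 ± 0.33 did not pass the test (95% interval -1.38 to 0.11, edgeR adjusted p = 0.239). MT1X is a widely expressed member of the MT1 group.

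MT1G and MT1F, both MT1 genes of the same metal-binding function, were read by few counts. MT1G had 13.1 and 12.4 counts in untreated and 5.08 and 6.12 in hemin-treated libraries, which is 6.54 and 6.42 TPM against 2.23 and 2.88 TPM. Its 2 untreated libraries were nearly equal, and both hemin-treated libraries lay below them. The log2 fold change was -1.17 ± 0.48 (95% interval -2.26 to -0.09, edgeR adjusted p = 0.139). The division of shared reads was least certain for this gene, with an RSEM posterior SD of up to 20.5% of the count.

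MT1F had 11.1 and 16.8 counts in untreated and 3.06 and 6 in hemin-treated libraries, or 4.39 and 7.32 TPM against 1.02 and 2.75 TPM. The groups did not overlap, and the replicates were further apart than those of MT1G. Its log2 fold change of -1.63 ± 0.55 was the largest fitted value of the 6 genes tested, with the widest interval, from -2.86 to -0.39, and it missed the threshold (edgeR adjusted p = 0.0797). Without the filter on low counts it passed (adjusted p = 0.0461), and so it did on RSEM's posterior mean counts (adjusted p = 0.0395).

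MT1E was the least abundant of the 5, with 7.96 and 3.08 counts in untreated and 5.85 and 2.00 in hemin-treated libraries. In TPM these were 2.16 and 1.3 against 1.96 and 1.19, and the groups overlapped. Fitted without the filter, its log2 fold change was -0.42 ± 0.77 (edgeR adjusted p = 0.813). At this depth a change of the size seen in MT2A could not be told from none in MT1E, since the pooled fold of 1.38 had an exact 95% interval from 0.507 to 3.96.

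Of the 6 genes tested, 1 was called lower and none higher by edgeR at an adjusted p below 0.05, while 7.14% of all 14458 genes tested were called lower and 14.1% in either direction. By library size alone in place of TMM, the genes called over the whole table numbered 729 higher and 1358 lower, against 1012 and 1033. At an unadjusted p below 0.05 there were 3, all lower (MT2A, MT1F and MT1G), while 14.6% of all genes tested were lower at that threshold and 29.4% in either direction. The TMM-normalised counts (CPM) of the groups did not overlap, with hemin lower, for 4 of the 6, against 29.3% of all genes tested. The median log2 fold change of the 6 was -0.905, against -0.005 over all genes tested. MT2A ranked 114 by size of fall among the 1033 genes called lower. The intervals of the 4 metallothioneins tested overlapped one another, and the differences between them were not tested.

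**Figure D2:**
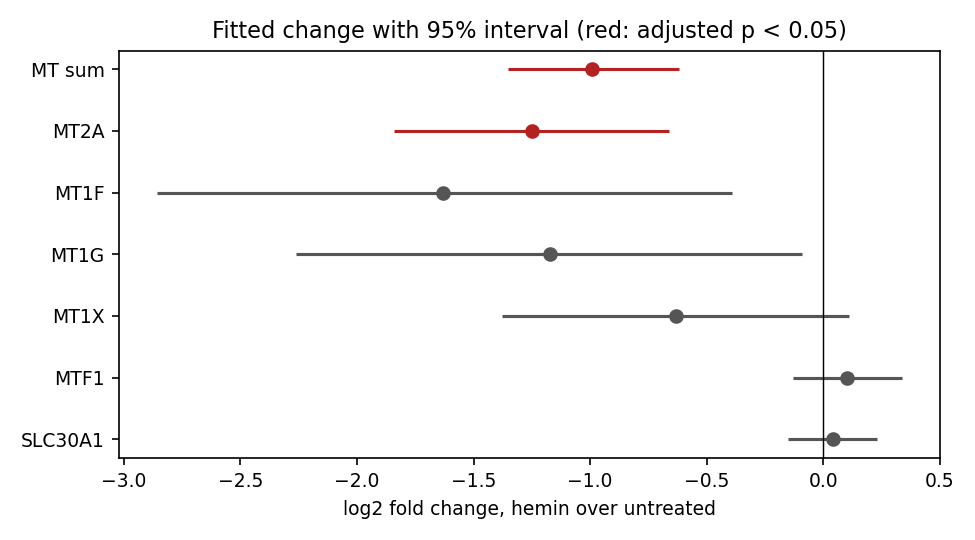
Fitted log2 fold change (hemin over untreated, edgeR) with its 95% interval for the summed metallothionein counts and the 6 genes tested, in red where the adjusted p was below 0.05. The sum, at -0.99, and MT2A, at -1.25, are in red; the MT1X interval crosses 0, and MTF1 and SLC30A1 sit at 0.10 and 0.04.

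Because reads shared between metallothioneins can be moved from gene to gene by the quantification, the counts of all 19 annotated MT1 and MT2 genes and pseudogenes were also summed within each library and tested as 1 feature. The sum was 148.00 and 125.01 counts in untreated and 75.00 and 63.01 counts in hemin-treated libraries. These sums were whole to within 0.01 of a count. The log2 fold change of the sum was -0.99 ± 0.16 (95% interval -1.35 to -0.62, edgeR adjusted p = 0.00512), a level after hemin of 0.504 of the untreated level. In TPM the sum went from 66.8 ± 7.35 to 32.3 ± 4.81 (SD, n = 2 each). Pooled counts of 273 and 138 gave a fold of 1.99 (exact 95% interval 1.62 to 2.46). Among the genes called lower, 169 fell by at least as much.

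**Figure D3:**
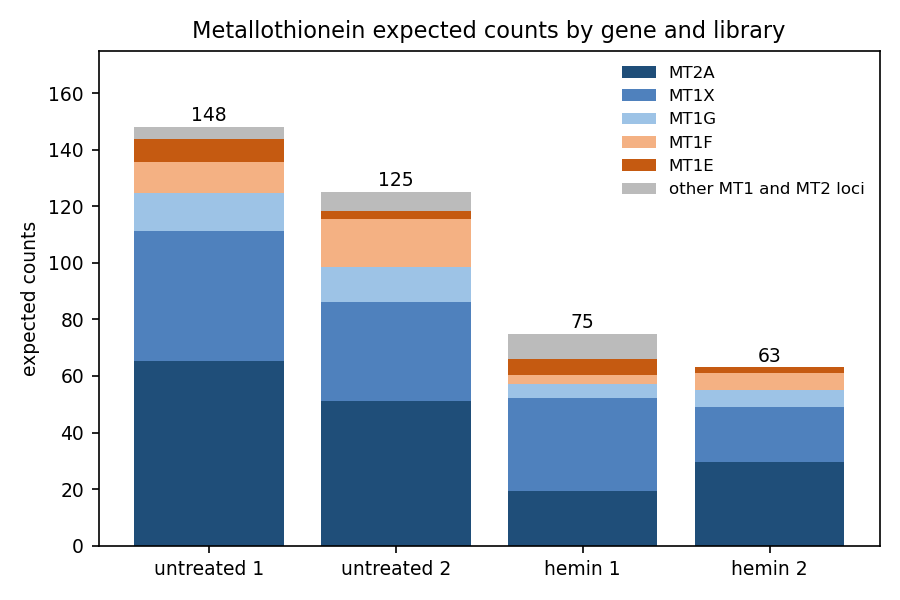
Expected counts of the metallothionein genes stacked by gene in each library, with the rounded sum above each bar. The 2 untreated bars (148 and 125) are both above the 2 hemin-treated bars (75 and 63), and MT2A and MT1X make up most of every bar.

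The 5 named metallothioneins made up 97.0% and 94.8% of the sum in untreated and 88.2% and 100% in hemin-treated libraries. MT2A alone took 44.2% and 40.9% of the sum in untreated libraries and 25.8% and 46.9% in the hemin-treated ones. The exact 95% intervals of the shares in the hemin-treated libraries, 16% to 36.7% and 34.9% to 60.6%, overlapped only at their ends. The difference between the group means, -6.14 percentage points, was smaller than the spread between the hemin replicates (SD 14.9 points; exact permutation test, two-sided p = 1). Without hemin replicate 1 it was 4.43 percentage points. MT1X took 31.1% and 28.1% of the sum in untreated and 43.7% and 30.6% in hemin-treated libraries, the larger value being in the library where MT2A was low.

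Of the 16 other metallothionein genes and pseudogenes examined, 7 had any count and none passed the filter. MT1A had 1 and 2 counts in untreated and 2 and 0 in hemin-treated libraries, and MT1H had 1 and 3 against 3 and 0. The pseudogenes MT1XP1, MT1P1, MT1P3, MT1L and MT1JP had at most 2.43 counts in any library. No count was assigned to MT1B, MT1M, MT3 or MT4 in any library. A count of 0 was read with an approximate upper limit of 3 counts, not as absence. MT3 and MT4 are known for expression in brain and in stratified epithelium.

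**Figure D4:**
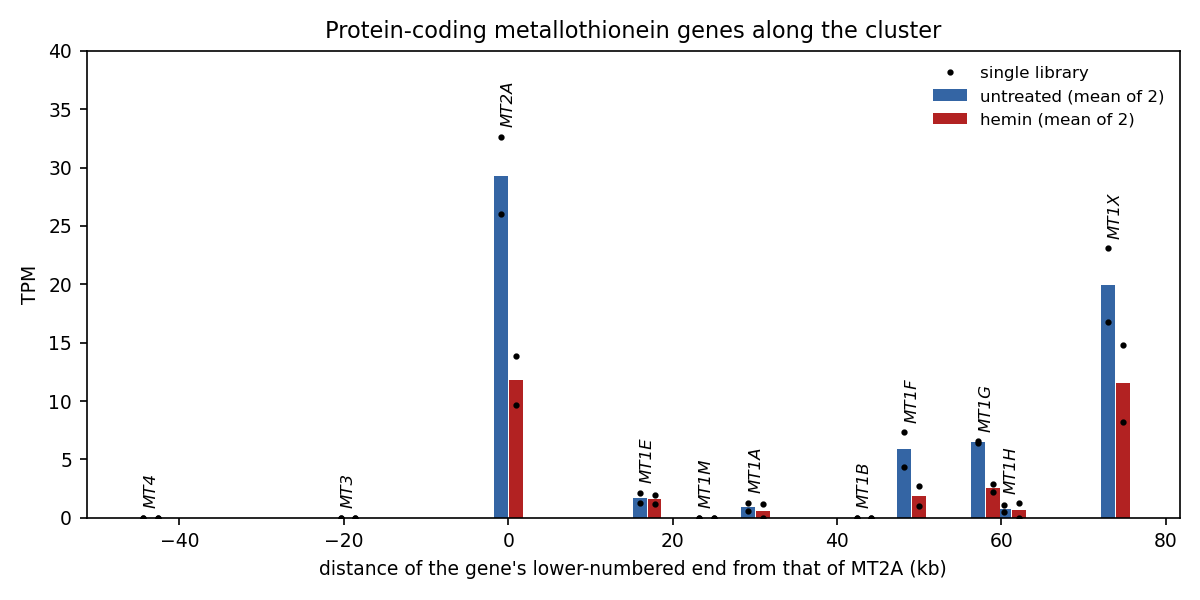
Mean TPM (bars) and TPM of each library (points) for the protein-coding metallothionein genes, placed by distance from MT2A in kb. MT2A and MT1X, at opposite ends of the group of expressed genes and 73.9 kb apart, have the highest levels in both conditions, and MT4, MT3, MT1M and MT1B are at 0.

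MTF1, the factor that reads the zinc level for the metallothionein promoters, showed no detectable change in counts. It had 193 and 178 counts in untreated and 178 and 223 in hemin-treated libraries, and the groups overlapped after scaling, with 24.4 and 23.8 against 24.0 and 27.6 normalised CPM. The log2 fold change was 0.10 ± 0.10 (95% interval -0.13 to 0.34, edgeR adjusted p = 0.565). In linear terms the interval ran from 0.914 to 1.26 of the untreated level.

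In TPM, MTF1 was at 5.38 and 4.57 in untreated and at 6.10 and 9.25 in hemin-treated libraries, so that the groups did not overlap. The weighted transcript length that RSEM used for the gene was 6439 and 7251 bases in untreated and 5451 and 4110 bases in hemin-treated libraries. The shorter length after hemin raises TPM at an equal count. The gene has a coding transcript of 7937 bases and a short one of 413 bases with no defined coding sequence. By limma on log2(TPM + 1) the log2 difference was 0.52, which did not pass either (adjusted p = 0.320).

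SLC30A1, the zinc exporter of the plasma membrane, did not pass the test. It had 378 and 392 counts in untreated and 407 and 389 in hemin-treated libraries, and 11.5 and 12.4 TPM against 12.9 and 11.2 TPM. The group means of 12 ± 0.615 and 12.1 ± 1.18 TPM (SD, n = 2 each) differed by less than either spread. The log2 fold change was 0.04 ± 0.09 (edgeR adjusted p = 0.807), with a 95% interval from -0.15 to 0.23. This interval and that of the metallothionein sum do not overlap. The gene has a single transcript of 5893 bases and no shared 50-base words, and RSEM's posterior SD of its count was 0 in every library.

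Set against SLC30A1 in the same library, the metallothionein sum was 39.2 and 31.9 counts per 100 SLC30A1 counts in untreated libraries and 18.4 and 16.2 in hemin-treated ones. All untreated ratios were above all hemin-treated ratios. The difference in the log2 ratio was -1.03 (exact permutation test, two-sided p = 0.333, the smallest p that 2 against 2 libraries allow).

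The order of the 7 genes by level in TPM differed between the groups. In untreated cells MT2A was highest, followed by MT1X and SLC30A1, and each of these was apart from the next in both libraries. MT1G, MT1F and MTF1 came next, with MT1G overlapping MT1F and MT1F overlapping MTF1, and MT1E was lowest. In hemin-treated cells SLC30A1, MT2A, MT1X and MTF1 formed a first run in which each overlapped the next, and MT1G, MT1F and MT1E formed a second run of the same kind. The gap between MTF1 and MT1G was the only step at which neighbours did not overlap. The effective lengths behind these TPM were 48.4 bases below the gene lengths for all 7 genes, less than the fragment length given in the study's methods. A larger subtraction would raise the TPM of the short metallothioneins relative to MTF1 and SLC30A1, without touching comparisons of 1 gene between groups at an equal length.

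**Figure D5:**
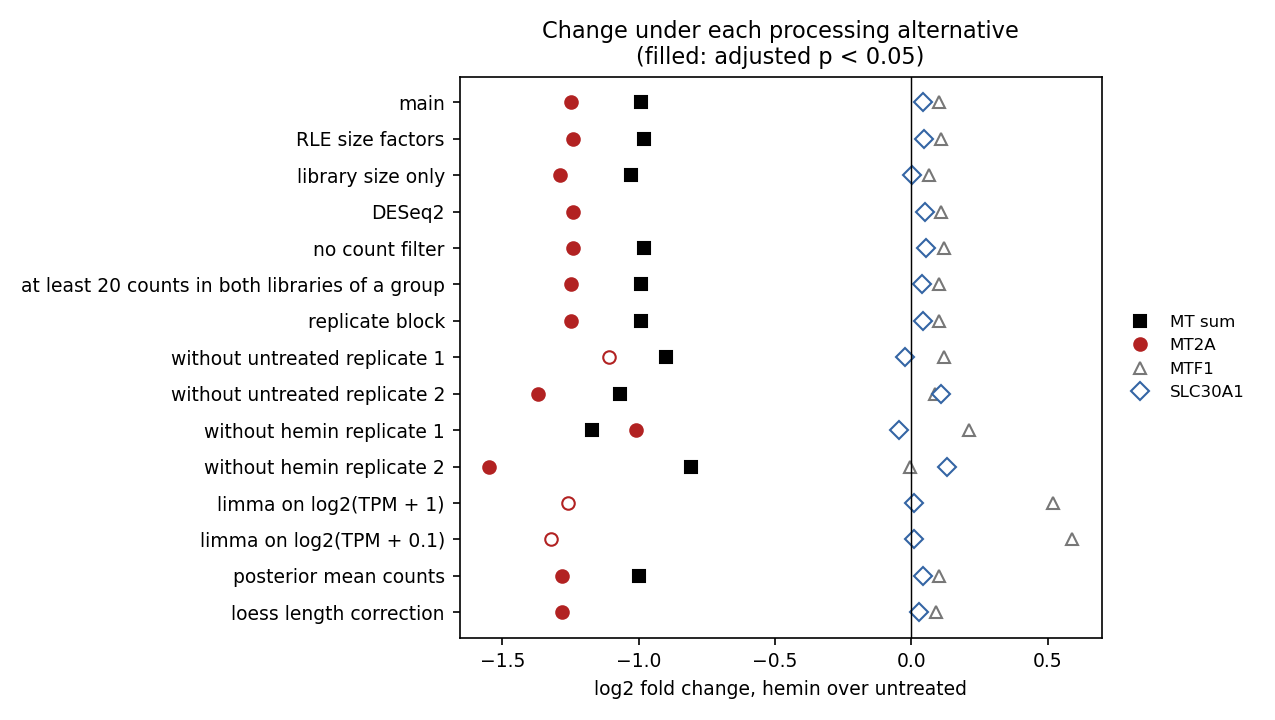
Log2 fold change (hemin over untreated) of the metallothionein sum, MT2A, MTF1 and SLC30A1 under the reported test (labelled main) and the processing alternatives, filled where the adjusted p was below 0.05; the sum was not fitted with DESeq2, limma or the length correction. The sum stays between -1.17 and -0.81 and filled throughout; MT2A stays between -1.55 and -1.01 but is open in 3 alternatives; MTF1 and SLC30A1 are open throughout.

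The SLC30 family is known mainly for moving zinc out of the cytosol. Among its other members, 7 of 9 passed the filter, of which 1 was called higher and none lower. Over all genes tested, 14.1% were called in either direction. The median log2 fold change of the list was -0.107, against -0.005 over all genes tested. SLC30A10, best known as a manganese exporter, had 197 and 174 counts in untreated and 249 and 298 in hemin-treated libraries. Both hemin-treated libraries were above both untreated ones, with a log2 fold change of 0.55 ± 0.09 (edgeR adjusted p = 0.00601). SLC30A2, a vesicular zinc transporter, had the lowest value of the list, at -1.35 ± 0.44 on 21 and 15 against 7 and 7 counts, and did not pass (adjusted p = 0.0690).

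The SLC39 family members bring zinc into the cytosol. Of 14 members, 11 passed the filter and none was called in either direction by edgeR, DESeq2 or limma. At an unadjusted p below 0.05 edgeR gave 1 higher and 1 lower of the 11, against 14.8% and 14.6% of all genes tested. The median log2 fold change of the list was 0.002. SLC39A10, a plasma membrane importer, had the highest value, with 695 and 673 counts in untreated and 758 and 803 in hemin-treated libraries. Its log2 fold change of 0.18 ± 0.05 lay at the edge of the threshold (adjusted p = 0.0504). SLC39A13, a zinc transporter of the secretory pathway, had the lowest value, at -0.30 ± 0.17 (adjusted p = 0.277).

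Of 8 other genes with reported control by MTF1, 7 passed the filter, with 1 called lower and none higher. The share called was 7.14% lower and 14.1% in either direction over all genes tested. The median log2 fold change of the list was 0.053, against -0.005 over all genes tested. The list does not separate genes by the direction of the reported control, so its median says nothing of MTF1 activity. NDRG1, a stress-responsive gene also induced by hypoxia and iron depletion, had 132 and 130 counts in untreated and 70 and 70 in hemin-treated libraries. It fell by 0.91 ± 0.14 on the log2 scale (edgeR adjusted p = 0.00395), and was past the threshold without any single library as well (largest adjusted p = 0.0266). SLC30A2 and SLC39A10, which belong to this list too, had its lowest and highest values. GCLC, the catalytic subunit of the first enzyme of glutathione synthesis, was at 0.10 ± 0.11 (adjusted p = 0.593).

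Metallothioneins also bind copper. Of 15 genes of copper handling, 14 passed the filter, with 2 called lower and none higher. Over all 14458 genes tested, 7.14% were called lower and 14.1% in either direction. The median log2 fold change of the list was -0.118, against -0.005 over all genes tested. SLC31A1, the copper importer of the plasma membrane, had 1091 and 1068 counts in untreated and 924 and 913 in hemin-treated libraries, a fall of 0.24 ± 0.06 on the log2 scale (edgeR adjusted p = 0.0244). ATP7A, a copper-exporting ATPase, fell by 0.35 ± 0.08 (adjusted p = 0.0241), from 618 and 502 to 413 and 473 counts. By DESeq2 the adjusted p was 0.0528 for SLC31A1, which did not pass, and 0.0405 for ATP7A. The call of ATP7A was lost without untreated replicate 1 (adjusted p = 0.137). That of SLC31A1 was lost without untreated replicate 1 (adjusted p = 0.0664), without untreated replicate 2 (adjusted p = 0.117) and without hemin replicate 2 (adjusted p = 0.133). SCO2, a copper chaperone of cytochrome oxidase, had the lowest value of the list, at -0.62 ± 0.38, and the metalloreductase STEAP3 the highest, at 0.16 ± 0.09, neither of which passed.

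Around the metallothionein cluster, 10 other protein-coding genes lie within 300 kb, of which 8 passed the filter. Their median log2 fold change was -0.290. HERPUD1, a protein of endoplasmic reticulum-associated degradation, had 594 and 559 counts in untreated and 352 and 412 in hemin-treated libraries, and fell by 0.60 ± 0.07 (edgeR adjusted p = 0.000760). NUP93, the nearest tested protein-coding gene on the MT1X side, was at 0.06 ± 0.06 (adjusted p = 0.531).

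The 5 genes with at least 100 mean counts whose profile over the 4 libraries was nearest to that of the metallothionein sum were PALM, TIMM23B-AGAP6, RABAC1, RYR1 and TEX19. Likeness was the Euclidean distance between log2 CPM centred on each gene's mean, and ran from 0.026 for PALM to 0.164 for TEX19. PALM had 149 and 127 counts in untreated and 77 and 65 in hemin-treated libraries, beside 148 and 125 against 75 and 63 for the sum. The likeness rests on 4 libraries and is given as a description of them.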

How the data were processed

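The 4 libraries hold reads of 50 bases from poly(A) RNA. Per the labels and the study's methods, the authors trimmed reads with Trimmomatic 0.39 and quantified them with RSEM 1.3.1 through STAR on the Ensembl annotation of GRCh38. The deposited expected counts are not normalized, and RSEM divides reads that map to several genes between those genes. The deposited TPM scale these counts by effective length to a fixed total in each library. TPM in the deposited series tables equalled those of the library files to within 0.005. The 4 deposited FPKM columns were not used, and neither was any differential table or contact data. Expected counts were rounded to whole numbers, filtered by filterByExpr, which kept 14458 of 61498 genes, and given TMM factors. The test was the quasi-likelihood test of edgeR 4.0.16 (R 4.3.3), with condition as the only term and Benjamini-Hochberg adjustment at 0.05. The metallothionein sum was tested in a separate fit of the whole table, in place of its parts. DESeq2 1.42.0 and limma 3.58.1 gave alternatives, and exact intervals (95%) used scipy 1.17.1. Scripts were tested on simulated data.

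Log2 fold changes are hemin over untreated. The coding transcript nearest in coding length to that of MT2A stood for each metallothionein. The members and gene lists were chosen with earlier results of these data known. Genes named are the members, list genes past the threshold, the highest and lowest of each list, metallothionein genes with any count, called neighbours within 300 kb, and the 5 genes nearest in profile. Some results that this rule would name are not reported here. EPCAM, GCLC, NUP93, and markers and metallothioneins at 0 were named after their values were seen. Exact intervals cover counting error only, whereas the intervals of log2 fold changes come from the edgeR fit and include the spread between libraries. Other settings were RLE factors, library size only, posterior mean counts, no filter, a minimum of 20 counts in both libraries of a group, omission of each library in turn, a replicate block, a loess length correction (span 0.4), and limma with a pseudocount of 1 or 0.1 TPM.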

Additional observations from a re-analysis of the deposited data

How the results depend on the processing

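The fall of the metallothionein sum kept its direction and stayed past the threshold in all 11 alternatives run, none of which used DESeq2 or limma (log2 fold change -1.17 to -0.81, adjusted p 5.22e-07 to 0.0379). MT2A was lower in all 14 of its alternatives, and was not past the threshold by limma on log2(TPM + 1), at -1.26 (adjusted p = 0.0809), by limma on log2(TPM + 0.1), at -1.32 (adjusted p = 0.0861), or without untreated replicate 1. By DESeq2 its adjusted p was 0.0473. MT1F was past it with no count filter (-1.62, adjusted p = 0.0461) and on posterior mean counts (-1.62, adjusted p = 0.0395). With 1 library left out, log2 fold changes lay between -1.55 and -1.01 for MT2A, between -2.13 and -1.24 for MT1F, between -1.25 and -1.10 for MT1G, between -1.14 and -0.24 for MT1X, between -0.0057 and 0.21 for MTF1 and between -0.046 and 0.13 for SLC30A1. MTF1 thus turned its sign without hemin replicate 2 (-0.0057), and SLC30A1 without untreated replicate 1 (-0.025) and without hemin replicate 1 (-0.046), all near 0. The difference in the MT2A share ran from -16.7 to 4.43 percentage points, positive without hemin replicate 1. Where 1 library of a group remained, its variance was taken from the whole fit. The causes of these shifts were not tested.

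Genes called higher and lower over the whole table numbered 602 and 481 by DESeq2, 14 and 33 by limma on log2(TPM + 1), 15 and 34 by limma on log2(TPM + 0.1), and 469 to 934 and 512 to 884 with 1 library left out, lowest without untreated replicate 1 (469 and 512) and then untreated replicate 2 (537 and 532). DESeq2 gave no adjusted p for MT1E, MT1F and MT1G, and the filter of at least 20 counts removed MT1F and MT1G as well as MT1E.

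The groups share replicate numbers, but the deviations of same-numbered libraries correlated at 0.0386 over 12559 genes, so the numbers were not taken to pair the libraries. With a replicate block, MT2A was at -1.25 (adjusted p = 0.0279), the sum at -0.99 (adjusted p = 0.00718), and 855 genes were called higher and 886 lower.

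Depth limits the small genes most: a library of these totals read MT1E by 2.00 to 7.96 counts. The approximate upper limit of 3 counts, set for a count of 0, is 0.364 to 0.402 CPM.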
